A study of Mus musculus with 6 samples.

Results

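Macrophages that take up lipid and dying cells carry a recognisable set of transcripts, and 10 such genes were followed here in mouse testis: Gpnmb, Trem2, Tyrobp, Cd68, Lgals3, Ctsk, Spp1, Lpl, Apoe and Lyz2. The 10 were picked by symbol as lysosomal and lipid-handling macrophage genes, because Gpnmb and Tyrobp were strongly higher in Stra8-deficient testes. All 10 were found among the 21786 gene symbols that the 6 libraries share. The contrast between genotypes was thus used in choosing them, and their fold changes are given below as a description, without p-values.

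The libraries hold polyadenylated RNA of whole testes, stripped of the tunica albuginea, from mice of C57BL/6 background. The first group is 3 males of genotype Stra8 -/- aged 1 year, with grossly enlarged testes that the labels describe as consisting mainly of cells like type A spermatogonia. The second is 3 males of genotype Stra8 +/+ aged 2 to 4 months, with normal testes. Stra8 encodes a factor that retinoic acid induces in germ cells and that they need for meiosis. Age and testis enlargement follow genotype, so their effects cannot be told apart. The deleted part of the allele is not given in the sources used here.

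In a phagocyte, TREM2 is a surface receptor for lipids and lipoproteins, and it signals through the adaptor TYROBP (DAP12), which carries an activation motif that recruits kinases. Ingested material passes to lysosomes, where CD68 and GPNMB lie in or near the membrane and cathepsins and lysozyme digest the cargo. Apolipoprotein E carries cholesterol away from the cell, lipoprotein lipase frees fatty acids from triglyceride, and osteopontin (Spp1) and galectin-3 (Lgals3) are secreted. In a normal testis, resident macrophages sit between the tubules and on them, while Sertoli cells do most of the engulfing of dying germ cells.

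Each library held 6733128 to 12425689 reads in genes. Counts were scaled by TMM, a factor that centres most genes between libraries, and levels are given as CPM, reads per 1000000 of the scaled total. Reads of Stra8 itself numbered 211, 249 and 270 in the Stra8-deficient and 120, 132 and 93 in the wild-type libraries, and since the deleted part is not known these reads do not check the labels. The summed level of 8 markers of undifferentiated spermatogonia was 1121 to 1853 CPM in Stra8-deficient and 44.9 to 56.7 CPM in wild-type libraries, and that of 6 spermatid markers was 2.67 to 10.7 CPM against 21564 to 24946 CPM. The third Stra8-deficient library stands apart: its file lists 23285 symbols where the other 5 list 22055, and its summed level of 7 Leydig cell markers was 2705 CPM, against 330 CPM in the first and 18.4 CPM in the second. The biological coefficient of variation was 38% among the Stra8-deficient and 7.36% among the wild-type libraries. The tests measure differences against the variation among 3 testes of each genotype. Results for the 10 genes are therefore given with and without the third library.

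Promoter windows, from 250 bases before to 50 bases after the annotated start, were available from RefSeq (build GRCm38.p6) for 8 of the 10 genes, in 11 windows. Tyrobp and Lpl had no entry. Motifs known from macrophage and lysosomal genes, 4 in all, were searched on both strands: GAGGAA, the core bound by the myeloid factor PU.1 and its relatives; TGANTCA, the AP-1 site; CACGTG, the centre of the CLEAR element bound by TFEB and TFE3; and TCATGTG, the M-box of MITF. None of the 4 contains another. GAGGAA was present in 6 of the 11 windows, belonging to Apoe, Cd68, Ctsk, Spp1 and Trem2, against 28.3% of all 32851 windows. TGANTCA was present in 3 windows, those of Cd68, Gpnmb and Trem2, against 7.81% of all windows. CACGTG and TCATGTG were in none of the 11, and in 7.15% and 3.77% of all windows. A match is a description of the letters and shows no binding.

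The stretches below are shown because they hold matches of 4 genes around which the results turn, all of them except a GAGGAA on the opposite strand of Cd68 that begins at base 30 after the start. They are written 5′ to 3′ on the gene's strand with GAGGAA (or its reverse complement) and TGANTCA in capitals.
Gpnmb: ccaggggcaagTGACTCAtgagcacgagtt
Trem2: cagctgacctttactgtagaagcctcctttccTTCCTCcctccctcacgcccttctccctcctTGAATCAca
Cd68, upstream: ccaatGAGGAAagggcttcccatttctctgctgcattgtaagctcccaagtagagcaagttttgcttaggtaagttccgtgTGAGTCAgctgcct
Cd68, proximal: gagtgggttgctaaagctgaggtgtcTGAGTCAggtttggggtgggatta
Spp1: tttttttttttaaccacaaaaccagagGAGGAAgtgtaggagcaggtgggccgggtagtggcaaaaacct

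In GRCm38.p6 these are chr6:49036515-49036544 on the plus strand for Gpnmb, chr17:48346329-48346400 on the plus strand for Trem2, chr11:69666306-69666400 and chr11:69666171-69666220 on the minus strand for Cd68, and chr5:104434971-104435040 on the plus strand for Spp1. The Gpnmb match begins at base 9 after the annotated start, while the other matches printed lie before it. The reads were aligned by the authors to another build, mm9, and no coordinate of theirs is used.

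**Figure D1:**
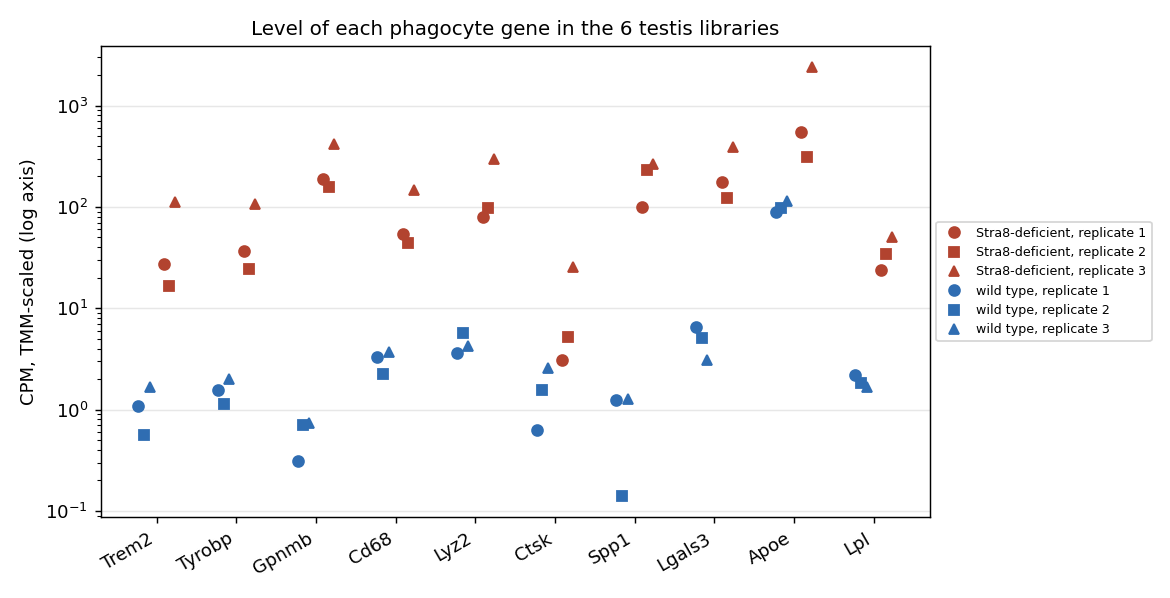
Level of each of the 10 phagocyte genes in each library (CPM, log axis), with colour for genotype and symbol shape for replicate. Every red point lies above every blue point of the same gene, the third Stra8-deficient library (red triangle) is the highest for all 10, and Ctsk has the narrowest gap between genotypes.

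All 10 genes were higher in each Stra8-deficient library than in any wild-type library, a separation found for 40.7% of the 15018 genes tested. All 10 also passed edgeR's quasi-likelihood test at an adjusted p of 0.05 as higher, where 39.0% of all tested genes did and 75.8% passed in either direction. Since the contrast chose the genes, nothing is read from these counts. All 10 passed the filter on low counts, but 5 of them (Gpnmb, Trem2, Tyrobp, Ctsk and Spp1) did so only through the Stra8-deficient libraries. The median log2 fold change of the 10 was 5.15, beside 0.11 for all genes tested. Without the third Stra8-deficient library the median was 4.28, beside 0.04 for all genes, and all 10 again passed, where 38.5% of the genes tested in that fit were called higher. Whole testes were sequenced, so more phagocytes in the tissue and more RNA of these genes per phagocyte cannot be told apart.

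Of the receptor and its adaptor, Trem2 measured 27.4, 16.7 and 113 CPM in the Stra8-deficient libraries (in the order of their replicate numbers, as throughout) and 1.09, 0.565 and 1.65 CPM in the wild-type libraries. The third library held the most, and the lowest Stra8-deficient level was still 10.1 times the highest wild-type level. The log2 fold change was 5.60 ± 0.90 (Stra8-deficient over wild type, with the approximate standard error of the fit), and 4.33 without the third library. Tyrobp, the adaptor, measured 37.0, 24.5 and 106 CPM against 1.56, 1.13 and 2.02 CPM. Its log2 fold change was 5.17 ± 0.64, and 4.29 without the third library. The pair kept the same order of libraries within the Stra8-deficient group, with the second lowest and the third highest.

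Among the lysosomal genes, Gpnmb differed most. Its reads came to 1859, 1648 and 6223 under Stra8 deficiency and to 2, 5 and 4 in wild type, which is 187, 157 and 417 CPM against 0.312, 0.706 and 0.734 CPM. The 3 Stra8-deficient libraries lay within 2.65 times of each other, and the lowest of them was 214 times the highest wild-type level. Gpnmb thus had a log2 fold change of 8.74 ± 0.56, or 8.16 without the third library, and ranked 15th from the top among the 15018 fitted fold changes. The wild-type level rests on 11 reads in all, for which the 95% exact Poisson interval is 5.49 to 19.7 reads, so counting error alone leaves the size of the fold uncertain. Such intervals cover counting error only, since reads are not independent molecules.

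Cd68, the membrane glycoprotein used to stain macrophage lysosomes, measured 54.1, 43.7 and 147 CPM against 3.28, 2.26 and 3.67 CPM. This gave a log2 fold change of 4.74 ± 0.53, or 3.99 without the third library. Lyz2, the lysozyme of macrophages and neutrophils, measured 79.0, 97.0 and 297 CPM against 3.59, 5.65 and 4.22 CPM, for log2 fold changes of 5.12 ± 0.58 and 4.27 without the third library. Its near-identical neighbour Lyz1 was read 395 times in the third Stra8-deficient library, once in the first and never in the other 4. Reads of such paralogs can be divided differently by different counting, and the third library was counted on another gene list, so the values of Lyz2 in that library are uncertain. The first and second libraries, free of that difference, lay at least 14.0 times above the highest wild-type level.

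Ctsk, the cysteine protease that osteoclasts use on bone collagen, separated the genotypes least. It measured 3.11, 5.24 and 25.7 CPM in the Stra8-deficient libraries, with 31, 55 and 383 reads. The wild-type libraries measured 0.625, 1.55 and 2.57 CPM, so that the lowest Stra8-deficient level was 1.21 times the highest wild-type level. On the log2 scale the difference was 2.86 ± 0.86 with all libraries (7.28-fold) and 1.41 without the third (2.66-fold). It was also the member that was no longer called when the first or the second wild-type library was left out.

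Spp1 and Lgals3 encode secreted proteins that bind integrins and sugars. Spp1 measured 99.9, 230 and 267 CPM in the Stra8-deficient libraries and 1.25, 0.141 and 1.28 CPM in the wild-type libraries. Here the second library lay close to the third and the first was lowest, unlike the order seen for Trem2, Tyrobp and Gpnmb. Its log2 fold change was 7.84 ± 0.61, and 7.57 without the third library. Wild-type reads numbered 16, of which the second library held 1. Lgals3 measured 175, 122 and 394 CPM against 6.56, 5.08 and 3.12 CPM, for a log2 fold change of 5.53 ± 0.52, and 4.89 without the third library.

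By fitted fold change the lipid-handling pair, Apoe and Lpl, differed less than the other members except Ctsk. The lowest Stra8-deficient level of Lpl was still 10.9 times the highest wild-type level, beside 10.1 times for Trem2. Apoe was the only member with a sizeable level in normal testis, at 89.9, 96.7 and 115 CPM in the wild-type libraries. The Stra8-deficient libraries held 554, 309 and 2384 CPM, and the third was 7.72 times the second. On the log2 scale Apoe differed by 3.43 ± 0.76 with all libraries (10.8-fold) and by 2.09 without the third (4.26-fold). Lpl measured 23.9, 34.6 and 51.0 CPM against 2.19, 1.84 and 1.65 CPM, for a log2 fold change of 4.26 ± 0.36, and 3.93 without the third library. Its Stra8-deficient libraries lay within 2.13 times of each other, the narrowest spread of the 10 genes.

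The authors' deposited table gives log2 ratios of 8.76 for Gpnmb, 7.86 for Spp1, 3.42 for Apoe and 2.86 for Ctsk. For none of the 10 genes did the ratio in the authors' deposited table differ from the fit by more than 0.0276.

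Levels of different genes were compared per kilobase of the longest protein-coding transcript in GENCODE M21. In the Stra8-deficient testes Apoe led with 769 ± 805 CPM per kb (SD, n = 3), and it was the highest of the 10 in every library of both genotypes. Lgals3 (162 ± 102), Spp1 (132 ± 58.4), Lyz2 (120 ± 91.8), Tyrobp (99.1 ± 78.0), Gpnmb (68.5 ± 38.4), Cd68 (66.4 ± 46.3) and Trem2 (48.1 ± 48.5 CPM per kb) followed, and neighbours in that order did not differ beyond their spread. Lpl (8.87 ± 3.31) and Ctsk (7.50 ± 8.23 CPM per kb) stood at the bottom, with Lpl below Ctsk in the third library. In the wild-type testes Apoe measured 71.5 ± 9.28 CPM per kb and the other 9 genes 3.47 or less. Gpnmb had the lowest wild-type mean of the 10, at 0.158 ± 0.0637 CPM per kb, although Spp1 was lower in the second library. Among 13198 tested genes with a length, Gpnmb moved from the 2.64th percentile of wild-type levels to the 94.3rd of Stra8-deficient levels, and Spp1 from the 10.2nd to the 98.2nd. Both passed the low-count filter only through the Stra8-deficient libraries, so a low place among wild-type levels was set in advance. Lpl and Ctsk reached only the 53.6th and 49.7th percentiles.

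Whether phagocytes in these testes were laden with lipid was not tested, and markers of macrophages in general cannot show it. The genes of lipid uptake, storage and efflux, described below, had a median log2 fold change of 0.09, with 8 higher and 7 lower. Their median was -0.67 without the third Stra8-deficient library. Macrophages as such were followed with 18 markers. Of these, 13 were higher, 1 lower and 4 not called (39.0% of all genes tested were higher and 36.7% lower), with a median log2 fold change of 2.47. Without the third Stra8-deficient library 13 were higher and 3 lower, with a median of 1.83. The complement subunit genes C1qa (4.04 ± 0.68; edgeR, adjusted p = 8.64e-04), C1qb (3.78 ± 0.51; adjusted p = 1.58e-04) and C1qc (4.66 ± 0.68; adjusted p = 3.96e-04) were higher, and so were Ms4a7 (5.25 ± 0.73; adjusted p = 1.44e-04) and Fcgr1 (4.13 ± 0.83; adjusted p = 0.00153). Leaving out the third Stra8-deficient library lowered these 5 log2 fold changes, to 2.93 for C1qa, 2.97 for C1qb, 3.55 for C1qc, 4.24 for Ms4a7 and 2.87 for Fcgr1, and each was again called. The macrophage growth factor receptor gene Csf1r rose by 1.76 ± 0.46 (adjusted p = 0.00716). Not called were the mannose receptor gene Mrc1 (-0.77 ± 0.58; adjusted p = 0.258), the scavenger receptor gene Cd163 (0.31 ± 0.68; adjusted p = 0.686), Cx3cr1 (-0.01 ± 0.70; adjusted p = 0.987) and the Fc receptor gene Fcgr3 (0.53 ± 0.61; adjusted p = 0.452). Of these, Mrc1 (-1.87; edgeR, adjusted p = 4.23e-04) and Fcgr3 (-0.705; adjusted p = 0.0244) were called lower without the third Stra8-deficient library. Aif1 was the lower one, at -4.92 ± 0.82 (adjusted p = 0.00108), and it alone held 62.6% to 68.3% of the wild-type reads of the list. It was left out of the sums that follow, a choice made after seeing its values.

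The other 17 markers summed to 601, 408 and 1703 CPM in the Stra8-deficient and 184, 171 and 180 CPM in the wild-type libraries. Their order across the Stra8-deficient libraries is that of Trem2, Tyrobp, Gpnmb, Cd68, Lgals3 and Apoe. The summed Leydig, Sertoli, neutrophil, adipocyte and osteoblast markers had that order too, so it does not single out macrophages. The share of all genes with that order was not counted. The summed 10 genes measured 1240, 1040 and 4201 CPM against 110, 116 and 136 CPM. Apoe alone held 44.7%, 29.7% and 56.7% of the reads of the 10 in the Stra8-deficient libraries, and 81.5% to 84.6% in wild type. For the third library to be the highest of the Stra8-deficient group, as it was for all 10 genes, is the case for 32.6% of the genes called higher.

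**Figure D2:**
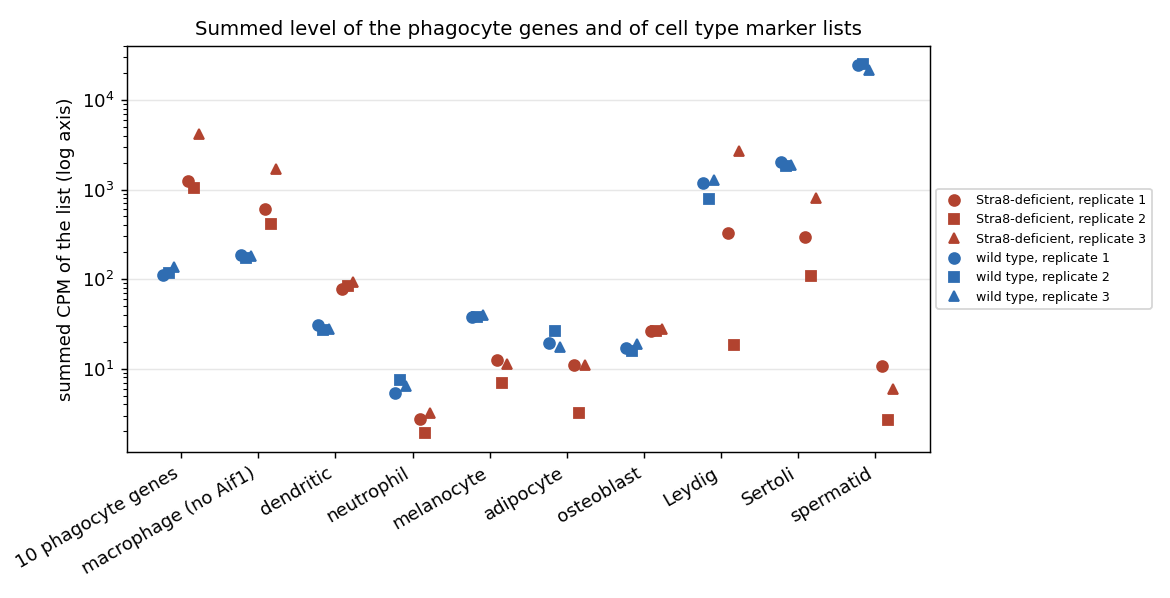
Summed level of the 10 phagocyte genes and of marker lists for other cell types in each library (CPM, log axis), by genotype (colour) and replicate (shape). The macrophage markers have the order of the phagocyte genes, whose sum is largely Apoe, across the Stra8-deficient but not the wild-type libraries. The Leydig, Sertoli, neutrophil, adipocyte and osteoblast markers have the same order across the Stra8-deficient libraries. The Leydig markers range from 18.4 to 2705 CPM among the Stra8-deficient libraries.

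Several members are also known from other cell types. Of the melanocyte markers, where Gpnmb is a pigment-granule protein, Tyr and Tyrp1 had 0 reads in all 6 libraries, and the 8 markers summed to 6.86 to 12.3 CPM in Stra8-deficient and 37.9 to 39.3 CPM in wild-type libraries, with Pmel the highest. The 8 adipocyte markers, cells rich in Lpl, summed to 3.24 to 11.1 CPM against 17.2 to 26.1 CPM, with Adipoq lower (-5.89 ± 0.48; adjusted p = 4.51e-06). The 6 osteoblast markers, where Spp1 is abundant, summed to 26.3 to 27.6 CPM against 15.8 to 18.7 CPM, with Runx2 the highest. Of these, 2 were called higher, Sp7 (2.39 ± 0.43, edgeR adjusted p = 8.18e-04) and Runx2 (0.54), and 1 lower, Phex (-2.20). Ibsp had no read in any Stra8-deficient library, while Dmp1 had 31 reads there against 1 in wild type. The 9 neutrophil markers found, of 10 listed, summed to 1.91 to 3.21 CPM against 5.31 to 7.48 CPM, and 2 of them (Camp and Retnlg) had 0 reads throughout. Few of these markers could be tested: 4 of the 8 melanocyte, 2 of the 8 adipocyte and 1 of the 10 neutrophil markers. Of those tested 0 were called higher, and 2, 1 and 1 were lower, beside 39.0% and 36.7% of all genes tested. Without the low-count filter 1 marker of each of these lists was called higher, where 6270 of all 18938 genes were. Some markers too low to be tested lay the other way. Mlana had 20 reads in Stra8-deficient against 0 in wild-type libraries, Adrb3 89 against 2 and Elane 40 against 1. The 7 dendritic cell markers summed to 77.2 to 92.6 CPM against 27.0 to 30.6 CPM, with Zbtb46 the highest. The 7 fibroblast and peritubular markers summed to 218, 335 and 507 CPM against 204 to 234 CPM, with the first Stra8-deficient library lowest and the third highest, the order also of Ctsk, Spp1, Lpl and Lyz2. Leydig cells, which handle cholesterol for steroid synthesis, moved with Apoe among the Stra8-deficient libraries: their 7 markers summed to 330, 18.4 and 2705 CPM where Apoe measured 554, 309 and 2384 CPM. The 11 Sertoli cell markers found had the same order, at 291, 108 and 808 CPM against 1835 to 2035 CPM in wild type. The part of these lists in the levels of the 10 genes was not tested.

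Each gene was also set against the macrophage markers, as its reads per 1000 reads of the 17 markers in the same library. Different markers fill that sum in the 2 genotypes, so the scale is no like-for-like amount per macrophage. In the first Stra8-deficient library Mrc1 had 217 and C1qc 1084 of 5984 marker reads. In the first wild-type library Mrc1 had 430 and C1qc 51 of 1176. Gpnmb had 311, 385 and 245 on this scale in the Stra8-deficient and 1.70, 4.13 and 4.07 in the wild-type libraries. Spp1 had 166, 565 and 157 against 6.80, 0.826 and 7.12. These were the widest differences of the 10, with the lowest Stra8-deficient value 59.3 times the highest wild-type value for Gpnmb and 22.1 times for Spp1.

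Tyrobp was nearly constant relative to the markers within the Stra8-deficient group, at 61.7, 60.0 and 62.3 reads per 1000, against 8.50, 6.61 and 11.2 in wild type. Trem2 (45.6, 40.9 and 66.3 against 5.95, 3.30 and 9.16), Cd68 (90.1, 107 and 86.4 against 17.9, 13.2 and 20.3) and Lgals3 (291, 299 and 231 against 35.7, 29.7 and 17.3) likewise stayed within 1.62 times between the Stra8-deficient libraries. Lyz2 measured 132, 238 and 174 against 19.6, 33.0 and 23.4. Lpl measured 39.8, 84.8 and 29.9 against 11.9, 10.7 and 9.16, and was highest in the second library, as Spp1 was.

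Apoe and Ctsk lay closest between the genotypes. Apoe had 923, 757 and 1399 reads per 1000 against 490, 566 and 639, the lowest Stra8-deficient value being 1.18 times the highest wild-type value. Ctsk had 5.18, 12.9 and 15.1 against 3.40, 9.08 and 14.2, and the genotypes overlapped. Thus 9 of the 10 genes did not overlap between genotypes on this scale, where 5.15% of all tested genes lay above. In the edgeR fit scaled to the 17 markers 8 of the 10 were called higher, where 5.57% of all genes were, and Apoe (0.86) and Ctsk (0.33) were the 2 not called. The log2 fold change of Gpnmb was 6.57 in that fit, that of Spp1 5.93 and that of Tyrobp 2.81. Without the third Stra8-deficient library these were 6.71, 6.24 and 2.80, and Apoe and Ctsk were at 0.57 and 0.02. The outcome for Apoe and Ctsk depends on leaving out Aif1. Scaled to all 18 markers, 10 of the 10 were called higher, where 2761 of the 15018 genes tested were. Apoe was then at 2.37 and Ctsk at 1.82. The contrast is again the one that chose the genes, so these values describe them.

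**Figure D3:**
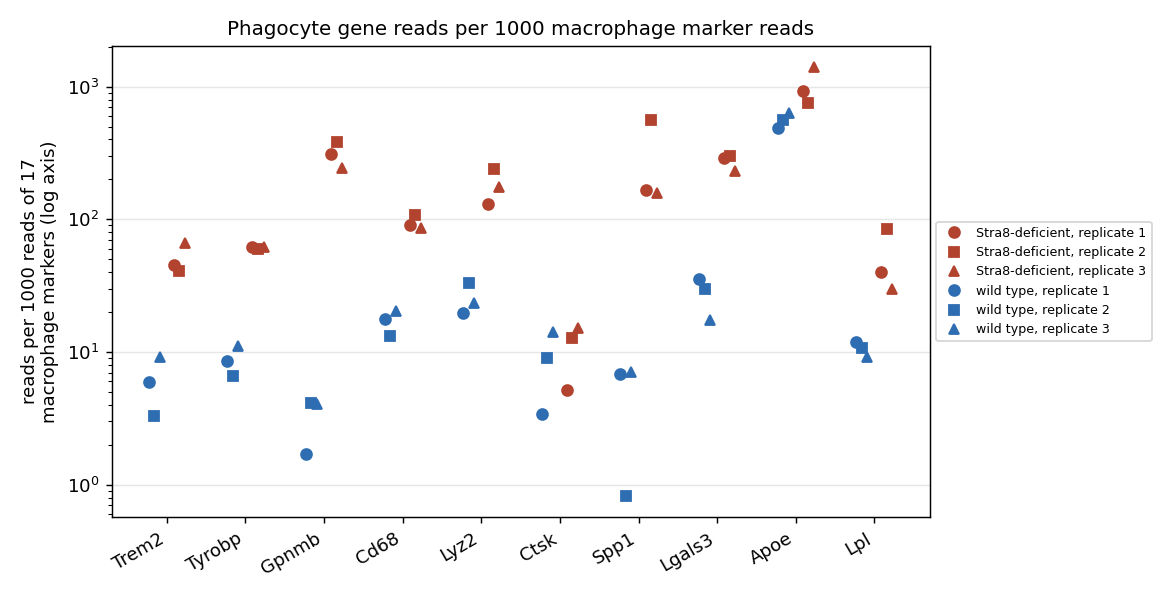
Reads of each phagocyte gene per 1000 reads of 17 macrophage markers in the same library (log axis), by genotype (colour) and replicate (shape). Gpnmb and Spp1 keep the widest gaps, the 3 Tyrobp points of the Stra8-deficient group coincide near 61, and Ctsk overlaps between genotypes.

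**Figure D4:**
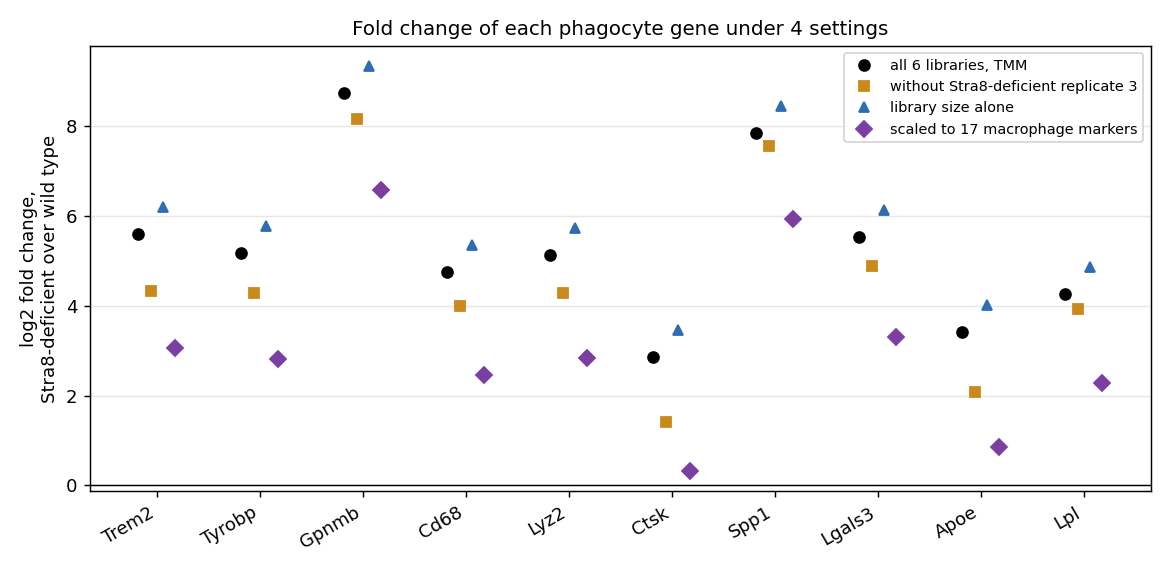
Log2 fold change of each of the 10 genes (Stra8-deficient over wild type) with all 6 libraries, without the third Stra8-deficient library, with library size alone, and scaled to 17 macrophage markers. Every value is above 0, and scaling to the markers lowers Ctsk to 0.33 and Apoe to 0.86.

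The genes around the 10 were taken from 10 lists, none of which contains a member of the 10. Over these lists 118 genes were tested, of which 64 were higher and 24 lower, beside 39.0% and 36.7% of all genes tested. Scaled to the 17 macrophage markers, as above for the 10 genes, 15 were higher and 49 lower, where 836 of all 15018 genes were higher and 8276 lower. Scaled to Sertoli markers 94 were higher and 3 lower, where 10334 of all genes were higher and 1416 lower. Without the third Stra8-deficient library 63 were higher and 37 lower, beside 5869 and 5831 of the 15225 genes tested in that fit.

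Most lysosomal proteases other than Ctsk were higher. Of 15 listed 13 were tested, and 12 were higher, none lower and 1 not called, with a median log2 fold change of 2.76 beside 0.11 for all genes. Scaled to the 17 macrophage markers 4 were higher and 1 lower, with a median of 0.85. Under that scaling the median of all genes was -1.76, and 5.57% of them were higher. Ctss, the cathepsin of antigen-presenting cells, rose from 3.83 ± 0.65 to 165 ± 137 CPM (SD, n = 3; log2 fold change 5.43 ± 0.64; adjusted p = 8.89e-05). Ctsz rose from 10.7 ± 0.54 to 161 ± 66.6 CPM (3.91 ± 0.31; adjusted p = 3.88e-06). The abundant cathepsin gene Ctsd measured 3.82 ± 0.37 (adjusted p = 1.42e-05) and Ctsb 3.41 ± 0.36 (adjusted p = 2.72e-05), both chosen for naming after their values were seen. Ctsl was not called (-0.53 ± 0.34; adjusted p = 0.181).

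Other lysosomal enzymes and membrane proteins had a lower median. Of 22 tested 15 were higher, 1 lower and 6 not called, with a median of 1.34 (3 lower without the third Stra8-deficient library). Gla, which removes galactose from glycolipids, rose by 3.76 ± 0.33 (adjusted p = 7.83e-06). Gm2a, the activator of ganglioside breakdown, was lower at -1.83 ± 0.39 (adjusted p = 0.00208). Lamp1, the main structural glycoprotein of the lysosomal membrane, was not called (-0.29 ± 0.17; adjusted p = 0.141). Cd68 and Gpnmb, which lie in the same membranes, had log2 fold changes of 4.74 and 8.74.

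Signalling partners of the TREM2 and TYROBP pair were mixed. Of 15 listed 9 were tested, and 4 were higher, 3 lower and 2 not called, with a median of -0.63. That median was -1.31, with 5 lower, without the third Stra8-deficient library, and it was above 0 without the second (0.75) or without any 1 wild-type library (0.53 to 0.85). The fits with a median above 0 tested 10 of these genes in place of 9. Fcer1g, another adaptor with an activation motif, rose by 3.80 ± 0.76 (adjusted p = 0.00178), and the phosphatase gene Ptpn6 by 2.77 ± 0.51 (adjusted p = 9.40e-04). The related receptor gene Trem1 had 3 reads in the Stra8-deficient and 88 in the wild-type libraries and was lower, 54.8 times higher in wild type after scaling (95% counting interval 18.2 to 271; adjusted p = 1.34e-05). Trem2 and Trem1 thus lay on opposite sides, at 5.60 and -5.53 in the fit.

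Genes of lipid uptake, storage and efflux were divided. Of 25 listed 21 were tested, and 8 were higher, 7 lower and 6 not called, with a median of 0.09. Without the third Stra8-deficient library 8 were higher and 11 lower, with a median of -0.67. Fabp4, a fatty acid carrier of macrophages and adipocytes, rose from 0.368 ± 0.0557 to 18.4 ± 5.62 CPM (5.59 ± 0.42; adjusted p = 2.82e-06), and Abcg1, which exports cholesterol, from 2.38 ± 0.66 to 44.1 ± 16.7 CPM (4.19 ± 0.36; adjusted p = 7.03e-06). Pnpla2, the lipase that opens lipid droplets, fell from 416 ± 18.2 CPM to 19.0, 6.10 and 26.0 CPM (-4.60 ± 0.47; adjusted p = 2.34e-05). The lipid droplet coat gene Plin2, named after its value was seen, was not called (0.58 ± 0.31; adjusted p = 0.117). Of the lipoprotein lipase partners 6 of 11 were tested, and 2 were higher, 1 lower and 3 not called, with a median of 1.11 that was -1.03 without the third Stra8-deficient library. Apoc2, the cofactor that activates the lipase, had 177 reads against 2, a ratio of 47.4 (95% counting interval 12.9 to 394; adjusted p = 3.45e-04). Angptl4, which inhibits it, rose by 2.80 ± 0.34 (adjusted p = 6.29e-05). Lmf1, which helps the lipase to fold, was lower at -3.25 ± 0.34 (adjusted p = 2.32e-05). Apoc1, named after its value was seen, was read 67, 2 and 2949 times in the Stra8-deficient group, the same order as the Leydig markers, and was not called (2.36 ± 1.74; adjusted p = 0.258).

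Receptors for osteopontin and GPNMB were mostly higher, with 6 of 11 tested genes higher, 2 lower and 3 not called and a median of 2.06. Cd44, the hyaluronan receptor that also binds osteopontin, rose from 0.396 ± 0.305 to 8.13 ± 3.89 CPM (4.39 ± 0.64; adjusted p = 2.05e-04). Sdc4, a heparan sulphate receptor, rose from 73.6 ± 4.48 to 941 ± 98.1 CPM (3.68 ± 0.19; adjusted p = 2.37e-07). The integrin subunit gene Itgav was lower (-1.33 ± 0.26; adjusted p = 0.00120). Of the other galectins 5 of 7 tested were higher and 2 lower. Lgals7, an epithelial galectin, had 629 reads against 3, a ratio of 112 (95% counting interval 38.2 to 546; adjusted p = 3.79e-06), Lgals2 rose by 4.96 ± 0.37 (adjusted p = 2.46e-06), and Lgals8 fell by 4.72 ± 0.33 (adjusted p = 1.78e-06).

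Of the transcription factors of macrophages and lysosomes 8 of 11 were tested, and 5 were higher, none lower and 3 not called, with a median of 2.40. Cebpb rose by 3.99 ± 0.32 (adjusted p = 3.92e-06) and Irf8 by 2.92 ± 0.30 (adjusted p = 2.31e-05). Mitf, which drives Gpnmb in pigment cells, was also higher (2.31 ± 0.37; adjusted p = 4.00e-04), as was Spi1, which encodes PU.1 (2.49 ± 0.64; adjusted p = 0.00611), both named after their values were seen. Tfeb, Tfe3 and Tfec stand under older symbols (Tcfeb, Tcfe3 and Tcfec) in every file except that of the third Stra8-deficient library, and so were outside the fit. Tfeb, a main regulator of lysosomal genes, measured 38.4, 9.15 and 19.96 CPM in the Stra8-deficient and 9.99, 9.18 and 9.17 CPM in the wild-type libraries, where the second Stra8-deficient library was the lowest of the 6. Tfe3 measured 63.9, 26.4 and 36.2 CPM against 44.7, 41.4 and 36.7 CPM, and the genotypes overlapped. Tfec, found in macrophages and osteoclasts, had 5, 13 and 49 reads against 0, 0 and 1.

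Of the osteoclast and giant cell genes, a class that shares Ctsk, 8 of 11 were tested, and 5 were higher, 2 lower and 1 not called. Atp6v0d2, a proton pump subunit of osteoclasts and some macrophages, had 1879 reads against 3, a ratio of 335 (95% counting interval 115 to 1627; adjusted p = 9.21e-06). Acp5, the tartrate-resistant acid phosphatase, rose by 3.23 ± 0.26 (adjusted p = 4.06e-06). Car2, the carbonic anhydrase of acid secretion, was lower at -7.58 ± 0.28 (adjusted p = 4.57e-08). Dcstamp, needed for osteoclast fusion, had 0 reads in each Stra8-deficient and 1 read in each wild-type library, and was not tested.

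The genes for engulfing dying cells had no direction that held under each scaling. Of 16 listed 13 were tested, and 2 were higher, 6 lower and 5 not called, with a median of -0.15. With library size alone 5 were higher and 2 lower, with upper-quartile factors 4 and 3, and scaled to Sertoli markers 8 and 0. Over all 15018 genes tested these counts were 7550 and 4326, 6645 and 4959, and 10334 and 1416. Havcr1 rose by 3.68 ± 0.47 (adjusted p = 9.17e-05) and Mfge8, which bridges phagocytes and dying cells, by 0.97 ± 0.24 (adjusted p = 0.00488). Elmo1, which acts in engulfment, was lower at -2.60 ± 0.35 (adjusted p = 1.11e-04). Mertk, the main engulfment receptor of macrophages and Sertoli cells, named after its value was seen, was not called (-0.15 ± 0.37; adjusted p = 0.721). Of the genes named from these lists, Fcer1g (2.49), Ptpn6 (2.09), Ctss (4.49), Gm2a (-2.52) and Atp6v0d2 (7.49) moved by over 1.5 times in fold without the third Stra8-deficient library, as did Cd44 (5.10) without the third, Lgals7 (7.56) without the first and Atp6v0d2 (8.94) without the second wild-type library.

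**Figure D5:**
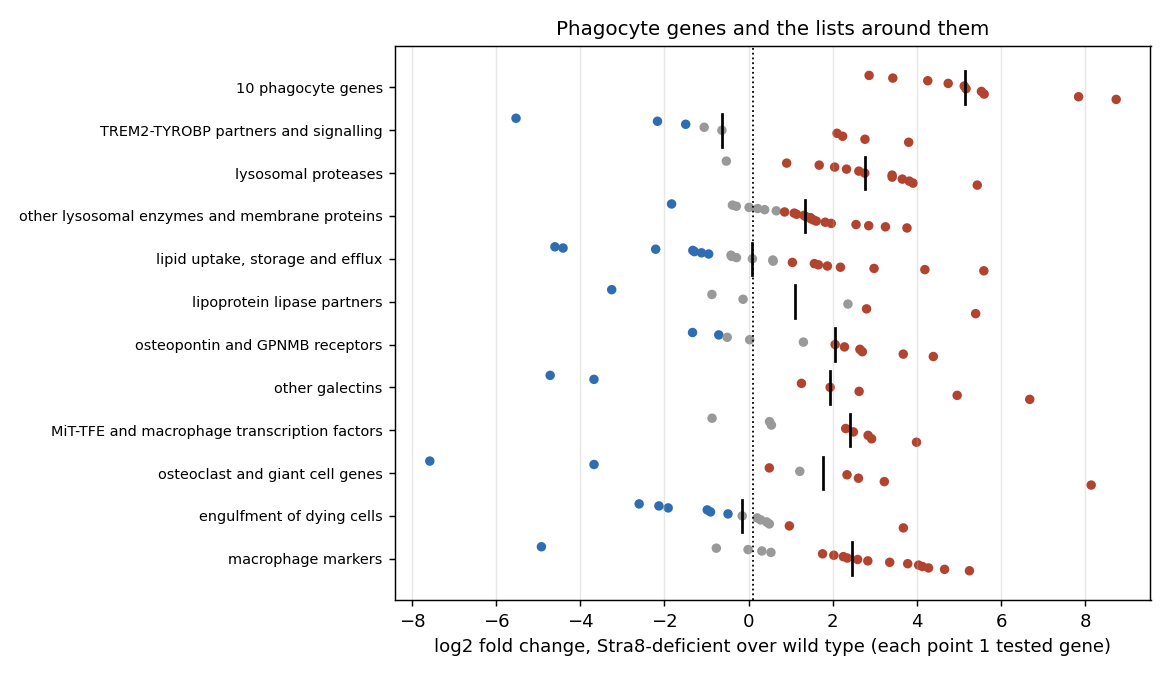
Log2 fold change (Stra8-deficient over wild type) of each tested gene in the 10 phagocyte genes, in 10 lists around them and among macrophage markers, with red for higher, blue for lower and grey for not called, black bars for list medians and a dotted line for the median of all genes. The lysosomal proteases lie to the right with a median of 2.76, while the lipid list spans both sides around 0.09.

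The genes whose profile over the 6 libraries lay nearest to that of Gpnmb were found by Euclidean distance between centred log2 CPM, among 13029 genes of sufficient level. They were Phlda2 (distance 1.16), Mmp12 (1.27), Atp6v0d2 (1.70), Nanos3 (1.71) and Pgc (1.84). Mmp12, an elastase of macrophages, was read 248, 261 and 1182 times under Stra8 deficiency and 0 times in wild type, at least 302-fold higher against a limit of 3 reads over the wild-type group. Atp6v0d2 had 257, 386 and 1236 reads against 0, 2 and 1. Nanos3 is a germ cell gene, with 1970, 1693 and 3018 reads against 7, 8 and 5, and so the nearest genes were not all macrophage genes. The distance is set mainly by the size of the difference between genotypes. Of the other 9 members Spp1 came closest (2.43, the 15th nearest gene) and Ctsk was farthest (7.41).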

How the data were processed

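TopHat, HTSeq and edgeR, with build mm9, are listed as the authors' tools per the submitters' processing notes. The deposited counts are whole reads per gene symbol and library. In the authors' deposited table, log2 columns hold average abundances and ratios, and p-value columns the nominal and corrected p. HTSeq's counters of reads outside genes (20.9% to 34.5% of reads) were left out. The 21786 symbols common to the 6 files were filtered with filterByExpr (15018 kept), scaled by TMM, and genotypes compared with edgeR 4.0.16's quasi-likelihood test (R 4.3.3; genotype the one term), adjusted by Benjamini-Hochberg over all genes, threshold 0.05. The code was tested on simulated data with 200 genes changed and the same variation in both genotypes. Far more genes were called here and the variation was unequal, so that test does not cover the scaling or the variation of these libraries. A standard error is the fold change over the root of F. A prior count of 2 entered log2 CPM. Reads of near-identical or overlapping genes are uncertain. The samples are separate males per the labels.

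The members and the lists were chosen with earlier results of these data known. The text names the 10 genes, Lyz1, per list the 2 largest rises and the largest fall among the called ones (average log2 CPM at least 0), the highest genes of marker lists, and the 5 genes nearest to Gpnmb (average log2 CPM at least 2); further macrophage markers, zero-read markers and genes marked in the text were added after their values were seen. One gene that the rule names is not reported here. Alternatives were RLE, library-size and upper-quartile factors, scaling to Sertoli or macrophage markers, no filter, DESeq2 1.42.0, a replicate block and leaving out each library. Not given in the sources used here are strand handling, annotation and the authors' tool versions.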

Additional observations from a re-analysis of the deposited data

How the results depend on the processing

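All 10 phagocyte genes kept a positive fold change under every alternative run. Without the first or the second wild-type library 9 of them were called, in each case without Ctsk. Of all genes 11379 were called, and 7371 when libraries were scaled to the macrophage markers with Aif1. With that list without Aif1, chosen after seeing the data, 9112 were called, of which 836 were higher. Higher genes numbered 5860 against 5519 lower with TMM, 5528 against 5772 with RLE, 7550 against 4326 with library size alone and 10334 against 1416 after scaling to Sertoli markers. The median of all genes was 0.11, -0.01, 0.73 and 3.20 under these. After scaling to Sertoli markers Gm2a (0.85), Itgav (1.65) and Elmo1 (0.20) changed sign and were not called, and Mfge8 was at -1.04 after scaling to macrophage markers without Aif1. Leaving out 1 library gave 10357 to 11726 calls over all genes, 9 to 10 over the phagocyte genes, 81 to 100 over the lists around them (88 with all libraries) and 49 to 58 over the cell type lists (50). The medians of 4 of the 10 lists around the phagocyte genes changed sign when 1 library was left out. Lipid uptake, storage and efflux went from 0.09 to -0.67 and the lipoprotein lipase partners from 1.11 to -1.03 without the third Stra8-deficient library. The TREM2 and TYROBP partners went from -0.63 to at most 0.85 without the first wild-type library, and engulfment from -0.15 to at most 0.13 without the first Stra8-deficient library. The genes tested also changed in these fits, from 9 to 10 partners and from 13 to 14 engulfment genes. The 2 effects were not separated. With the replicate block the lipoprotein lipase partners were at -0.32 and the lipid list at -0.44. Scaling turned further medians: against macrophage markers without Aif1 the other lysosomal genes were at -0.61, the other galectins at -0.37 and the osteoclast genes at -0.35. All 3 lay above the median of all genes under that scaling, which was -1.76. Replicate numbers gave no pairing of the genotypes (correlations of same-numbered deviations 0.06, 0.08 and -0.04), and with a replicate block 11218 genes, all 10 phagocyte genes and 85 list genes were called. Wild-type levels of Gpnmb and Spp1 rest on 11 and 16 reads, which limits the precision of their folds.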
